A study of Mus musculus with 12 samples.

Results

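Tropomyosins, nonmuscle myosin II chains, a class I myosin and myosin light chain kinase were examined as a set of 10 contractile genes in the NIH 3T3 line, immortalized fibroblasts from mouse embryos. The set was given as a list of symbols, namely Tpm1, Tpm2, Tpm3, Tpm4, Myh9, Myh10, Myl9, Myl6, Myo1e and Mylk, and was matched by symbol to the Ensembl identifiers of the count data. All 10 genes were found among the 49671 counted genes, and all 10 were among the 18668 genes with enough reads to be tested. Nonmuscle myosin II is a motor of paired heavy chains, each carrying an essential and a regulatory light chain, that pulls on actin filaments. Phosphorylation of the regulatory light chain by myosin light chain kinase and other kinases switches the motor on. Tropomyosins are coiled-coil dimers that lie along the actin filament and set which motors and severing proteins can reach it. In fibroblasts these proteins build stress fibres, and many of their genes are known targets of serum response factor (SRF) and its actin-controlled coactivator MRTF-A.

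The study asked how loss of the lamina-associated polypeptide Lap2, which is encoded by Tmpo, affects transcription in resting and in serum-stimulated cells. Cells were transfected with a negative control siRNA or with 1 siRNA sequence against all Lap2 isoforms, and were kept in 0.3% FBS (serum-starved) or received 15% FBS for 45 min after starvation (serum-stimulated). Each of the 4 combinations had 3 libraries of ribosome-depleted total RNA, so that no untransfected cells and no second Lap2 siRNA were compared. The sample titles number the libraries from 1 to 12, and the replicate numbers 1 to 3 used here follow that order within each group. The titles do not say that the libraries of a group came from separate cultures. P-values therefore measure only the spread between these libraries, which may be technical.

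Total counts ranged from 18026298 to 26265253 per library. Tmpo had 2775, 2805 and 2885 normalized counts in starved and 3264, 3243 and 3019 in stimulated control siRNA treated cells, against 982, 1175 and 1093 and 767, 745 and 607 in Lap2-depleted cells. Normalized counts here are read counts scaled for library size by the TMM method. Each Lap2 siRNA library lay below each control library of its serum condition (log2FC -1.38 in 0.3% and -2.17 in 15% FBS). Of 10 fibroblast markers, 9 were abundant and Fap had at most 3 counts. Their summed level was 41400 to 42700 CPM (counts scaled to library size) in starved control, 37500 to 40600 in stimulated control, 27400 to 33200 in starved Lap2-depleted and 28200 to 31300 in stimulated Lap2-depleted cells. Its part in the results below was not tested. The summed markers of skeletal muscle, epithelium, endothelium and macrophages stayed at or under 1.72 CPM, with Myod1, Myog, Ckm and Krt18 at 0, and Des, Myocd and Myh11 of smooth muscle were at most 0.797 CPM. The other smooth muscle markers, Smtn (68.4 to 147 CPM) and Cnn1 (1.01 to 7.27 CPM), were expressed, and the sum of all 5 was 88.0 to 92.5 CPM in starved and 135 to 154 in stimulated control cells, and 70.7 to 79.6 and 115 to 118 in Lap2-depleted cells. This sum moved in the same directions as Tpm1 and Myl9, and its part in their results was not tested. Replicate 1 of the starved Lap2-depleted cells stood somewhat apart, with a Pearson r of log2 CPM of 0.989 to the other two libraries of its group, while all other pairs of replicates had an r of at least 0.994. Calls of the 10 genes that change without it are given both ways.

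The CArG box, the binding site of SRF, was searched by name as its standard degenerate decamer, which is its own reverse complement, so that both strands are covered. The RefSeq promoter windows of GRCm38.p6 run from 250 bases before to 50 bases after a start site. Each of the 10 genes had at least 1 window, 12 in all. Of these 12 windows 3 held a box, each in another gene, against 1.63% of all 32851 windows. By gene, 4 of 65 other actomyosin genes with a window, from the list described below, had a box. These 4, Myh4, Myh13, Myl3 and Myl7, are muscle myosin chains and had too few reads to be tested. The boxes are shown in capitals with their flanks because they are the stretches of these promoters that the pathway studied here is known to read.
Myl9, chr2:156775293-156775322, plus strand: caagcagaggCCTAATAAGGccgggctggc
Myl6, chr10:128493040-128493069, minus strand: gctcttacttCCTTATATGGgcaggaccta
Myo1e, chr9:70207308-70207337, plus strand: gctgaattctCCATTTATGGacagattgcc
The box of Myl9 lay 161 to 152 bases upstream of its RefSeq start, that of Myl6 50 to 41 bases upstream of its downstream start and that of Myo1e 32 to 23 bases upstream. A match is a description of the letters and not a bound site. The other 7 genes, Tpm1 among them, had no box in these windows, which does not bear on sites elsewhere.

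The genes differ widely in level. On the RPKM scale, which divides reads by exon length and library size, Tpm4 (187 ± 6.81, SD, n = 3) and Myl6 (157 ± 7.68) were highest in serum-starved control siRNA treated cells. Myh9 (69.2 ± 5.46) and Tpm1 (64.2 ± 0.718) followed, with Tpm1 from 63.7 to 65.1 just below Myh9 from 65.3 to 75.4, a gap smaller than the spread of Myh9. Tpm2 (51.8 ± 3.88), Tpm3 (39.6 ± 0.837), Myh10 (36.6 ± 1.52) and Myl9 (21.7 ± 1.94) came next, then Myo1e (8.06 ± 0.413), and the kinase gene Mylk was lowest at 0.638 ± 0.0376. Exon models that take in retained introns lower some of these values. With the longest protein-coding transcript as the length, a choice made after seeing the data, Myl6 was first (286 to 315 over the 3 libraries), ahead of Tpm4 (186 to 199), Tpm1 (143 to 146), Myh9 (114 to 131) and Tpm3 (106 to 110).

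Serum raised most of the 10 genes with either siRNA. Lap2 siRNA split them in 0.3% FBS and lowered most of them in 15% FBS. In control siRNA treated cells serum raised 8 and lowered 0 of the 10, where 29.5% of all tested genes were called, 15.6% higher and 13.9% lower. In Lap2-depleted cells it raised 7 and lowered 1, where 33.2% of all tested genes were called, 18.3% higher and 14.9% lower. Lap2 siRNA raised 4 and lowered 3 of the 10 in 0.3% FBS, where 36.5% of all were called, 17.8% higher and 18.6% lower. In 15% FBS it raised 1 and lowered 7, where 23.4% were called, 11.4% higher and 12.1% lower. The signed log2FC of the serum response was lower in Lap2-depleted than in control cells for 6 of the 10 and higher for 0 (interaction term, 13.6% of all genes called, 7.09% higher and 6.51% lower). A gene was called when its p from the quasi-likelihood test of edgeR, adjusted by Benjamini-Hochberg over all tested genes, was under 0.05. Groups without overlap were common too, at 38.8% to 43.4% of all tested genes in the 4 comparisons of 2 groups. Abundant genes are called more often: among the 8153 genes with at least the mean level of the lowest of the 10, the shares called were 45.2%, 51.3%, 56.3%, 40.3% and 23.2% in the same order. The median log2FC of the 10 was 0.95 and 0.47 for serum with control and Lap2 siRNA, -0.02 and -0.30 for Lap2 siRNA in 0.3% and 15% FBS, and -0.28 for the interaction, and the median of all genes lay between -0.01 and 0.02 in each. Without the library that stood apart, the numbers called, in the same order, were 10, 9, 8, 8 and 8. By direction these were 10 higher and 0 lower, 7 and 2, 4 and 4, 1 and 7, and 1 and 7. All-gene calls moved too: 3482 higher and 2861 lower, 3402 and 3064, 3588 and 3431, 2431 and 2746, and 1556 and 1973 of 18434. With every library kept they were 2915 and 2597, 3420 and 2777, 3330 and 3480, 2125 and 2250, and 1324 and 1216 of 18668.

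**Figure D1:**
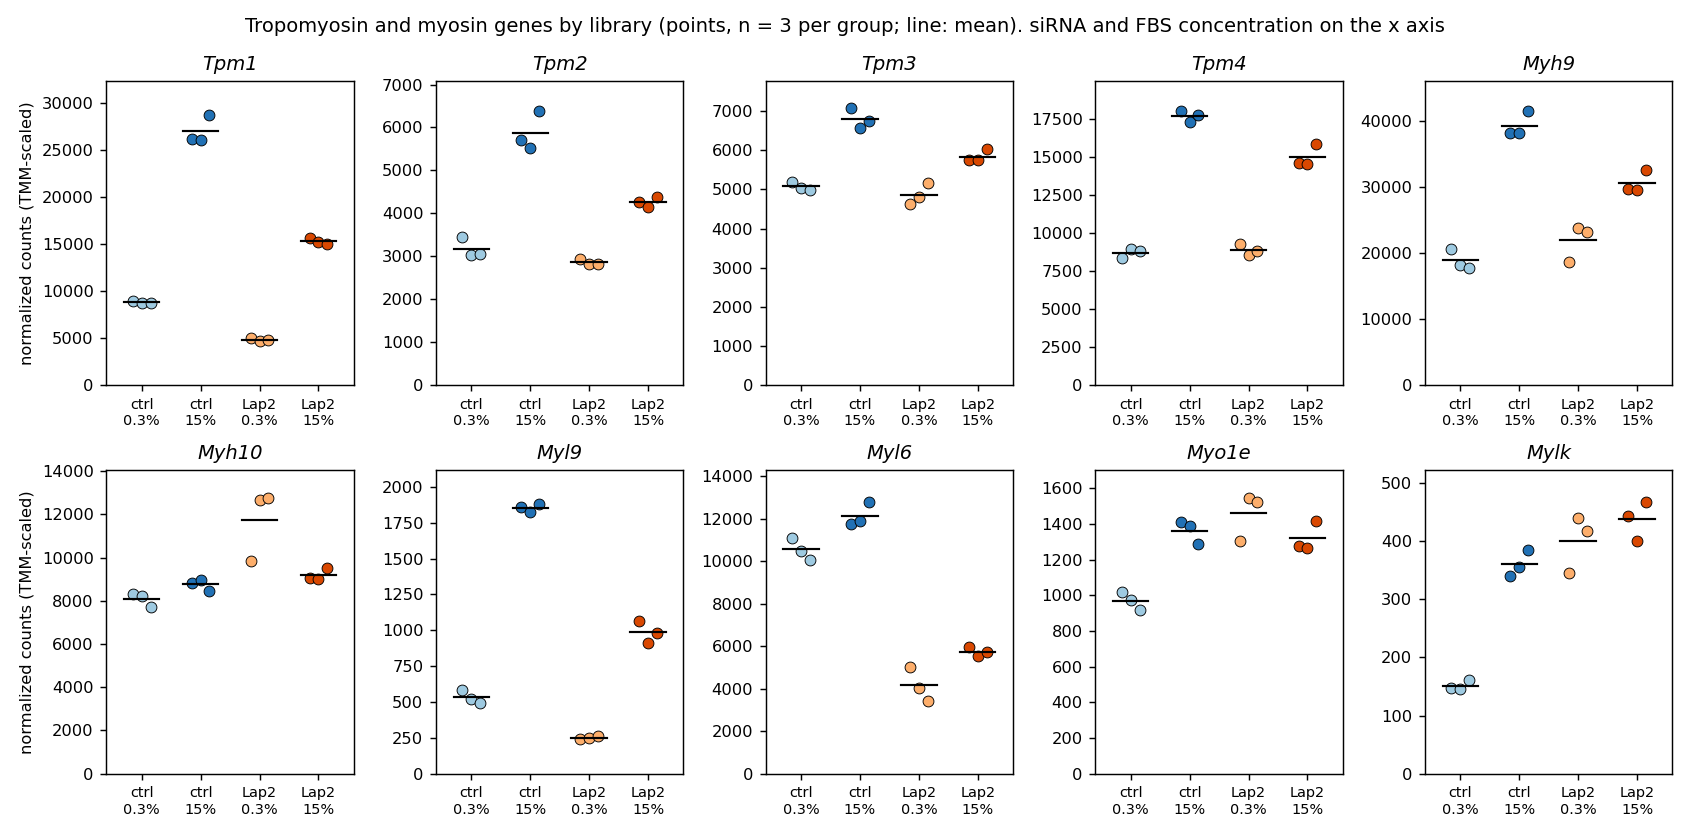
Normalized counts (TMM-scaled, linear axis from 0) of the 10 genes in each of the 12 libraries, grouped by siRNA and FBS concentration on the x axis; points are libraries (n = 3 per group) and lines are group means. Tpm1, Myl9 and Myl6 lie lower with Lap2 siRNA before and after serum, while Mylk, Myo1e and Myh10 lie higher with it in 0.3% FBS.

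Among the tropomyosins, Tpm1 (ENSMUSG00000032366, chr9:67022590-67049406 of mm10, minus strand), whose products include long isoforms of stress fibres, changed most. It had 8900, 8745 and 8719 normalized counts in starved and 26100, 26023 and 28702 in stimulated control siRNA treated cells. With Lap2 siRNA the libraries held 5006, 4675 and 4823 in 0.3% FBS and 15643, 15223 and 14953 in 15% FBS. No group overlapped another in either comparison: the stimulated Lap2-depleted cells stood above all starved cells and below all stimulated controls. Lap2 siRNA left 55.0% of the control level in 0.3% FBS (log2FC -0.86, standard error 0.06, adjusted p = 1.6e-13) and 56.7% in 15% FBS (log2FC -0.82, adjusted p = 1.6e-12). The fold rise with serum was nearly the same with control siRNA (log2FC 1.62, adjusted p = 3.4e-21) and Lap2 siRNA (1.66, adjusted p = 2.7e-21), and the interaction was 0.04 with a standard error of 0.08 (adjusted p = 0.81). Tpm1 thus moved down by a like factor at both ends of the response.

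The other tropomyosin genes were called lower with Lap2 siRNA in 15% FBS and not in 0.3% FBS. Tpm2 (ENSMUSG00000028464, chr4:43514711-43523765, minus strand), the beta-tropomyosin gene, had 3453, 3033 and 3047 normalized counts in starved and 5706, 5522 and 6379 in stimulated control cells. With Lap2 siRNA it had 2928, 2820 and 2816, and 4274, 4152 and 4382. The groups did not overlap in either serum condition, but the starved difference was small (log2FC -0.15, adjusted p = 0.069) against that in 15% FBS (-0.46, adjusted p = 1.8e-06). The serum response was smaller by 0.30 on the log2 scale (interaction -0.30, standard error 0.09, adjusted p = 0.025). This interaction missed the threshold without control 0.3% replicate 3 (adjusted p = 0.051), control 15% replicate 3 (0.11), Lap2 15% replicate 1 (0.056) or Lap2 15% replicate 2 (0.077). Without the library that stood apart, Tpm2 also passed in 0.3% FBS (-0.16, adjusted p = 0.047).

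Tpm4 (ENSMUSG00000031799, chr8:72134975-72153142, plus strand), which encodes a short isoform of nonmuscle cells, had 8339, 8923 and 8840 normalized counts in starved control cells and 9261, 8527 and 8809 in starved Lap2-depleted cells, so that these groups overlapped (log2FC 0.03, adjusted p = 0.78). After serum it had 18014, 17294 and 17766 in control and 14614, 14530 and 15862 in Lap2-depleted cells, all of the latter below all of the former (log2FC -0.24, adjusted p = 0.0028). The interaction was -0.26 (standard error 0.08, adjusted p = 0.031) and missed the threshold without any 1 of the 3 stimulated control libraries (adjusted p = 0.074, 0.051 and 0.064) or without Lap2 15% replicate 1 (0.095) or 2 (0.10). An antisense gene, Gm26586, overlaps 6.08% of the exon bases of Tpm4, and the sources used here do not say whether counting used the strand. Of the stretches of 50 bases of the Tpm4 coding transcript, 16.1% also occur in other genes, chiefly Gm7809, so that some reads may have been left uncounted or misplaced.
Tpm3 (ENSMUSG00000027940, chr3:90072649-90100902, plus strand) had the smallest log2FC of the 4 for serum with either siRNA and for Lap2 siRNA in 15% FBS. Its 6 starved libraries lay between 4624 and 5199 normalized counts and overlapped between siRNAs (log2FC -0.06, adjusted p = 0.48), while the stimulated control libraries had 7074, 6560 and 6749 and the stimulated Lap2-depleted libraries 5744, 5748 and 6034 (log2FC -0.22, adjusted p = 0.0071). Its interaction was -0.16 (adjusted p = 0.26), and -0.22 (adjusted p = 0.025) without the library that stood apart. Tpm3 is the least certain of the set, since 62.4% of the stretches of 50 bases of its longest coding transcript also occur in other genes, chiefly Tpm3-rs7, a near-identical copy that itself held 196 to 383 reads per library.
The direction of Tpm3 in 0.3% FBS and its calls for Lap2 siRNA in 15% FBS and for serum with Lap2 siRNA, and the call of Tpm4 for Lap2 siRNA in 15% FBS, depended on the scaling. With libraries scaled to total counts they were 0.05 (adjusted p = 0.58), -0.13 (0.11), 0.03 (0.71) and -0.15 (0.057).

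Shares of reads within a library do not depend on the scaling between libraries. They have a fixed sum, so a fall of Tpm1 by itself raises the other shares. Tpm1 took 34.1% ± 0.21 (SD, n = 3) of the tropomyosin reads in starved and 47.0% ± 1.14 in stimulated control cells, and 22.6% ± 0.332 and 37.8% ± 1.37 in Lap2-depleted cells. The share of Tpm4 was higher with Lap2 siRNA, at 41.4% ± 0.927 against 33.8% ± 1.38 in 0.3% FBS and 37.1% ± 1.17 against 30.9% ± 0.966 in 15% FBS. Its level was not higher: the log2FC was 0.03 (not called) in 0.3% FBS and -0.24 (called lower) in 15% FBS. These are shares of reads, not scaled by gene length. The share of Tpm3 was 19.7% ± 0.314 and 22.7% ± 1.38 in 0.3% and 11.9% ± 0.554 and 14.5% ± 0.187 in 15% FBS with control and Lap2 siRNA. These differences for Tpm1, Tpm3 and Tpm4 had no overlap between siRNAs (two-sided exact permutation test, p = 0.1 each, the smallest that 3 libraries against 3 allow). The share of Tpm2 differed little, with 12.3% and 13.3% in 0.3% FBS (exact p = 0.2) and 10.2% and 10.6% in 15% FBS (exact p = 0.4).

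**Figure D2:**
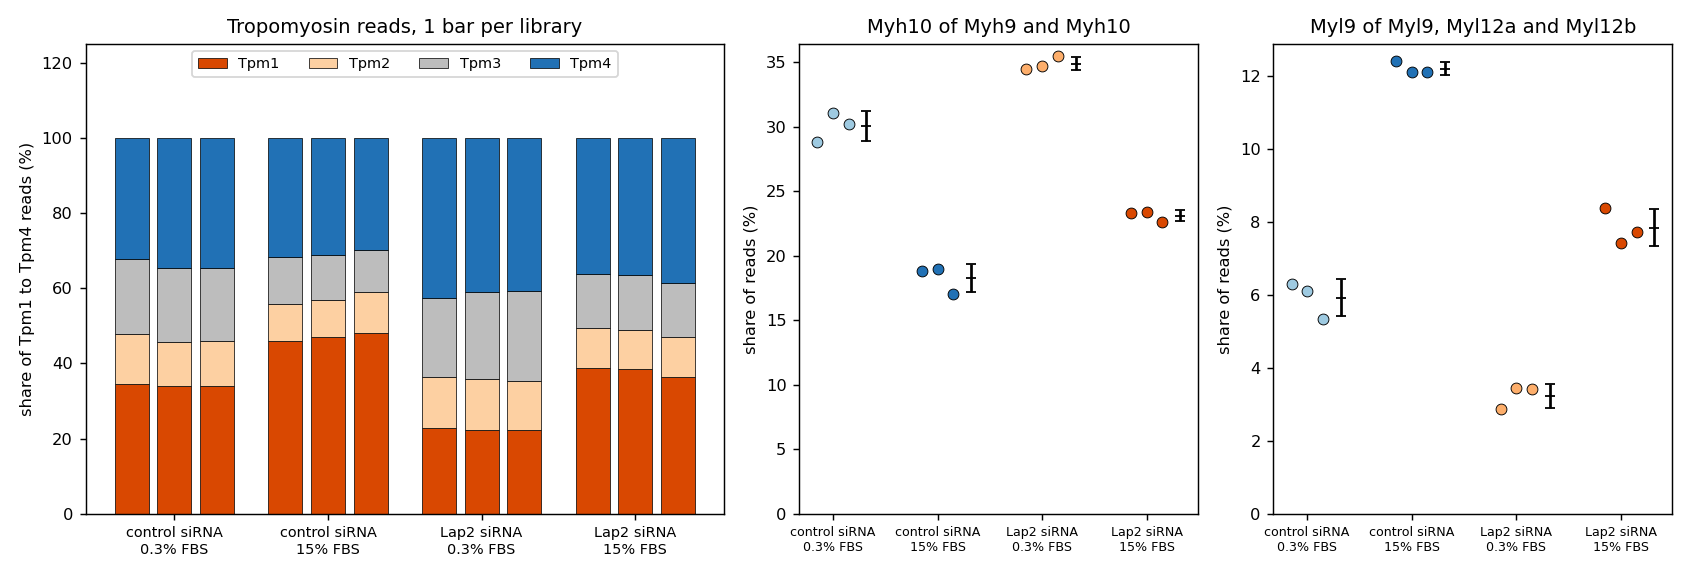
Left, the share of each tropomyosin gene in the summed Tpm1 to Tpm4 reads of each library, in percent, with 1 stacked bar per library; middle and right, Myh10 as a percent of Myh9 and Myh10 reads and Myl9 as a percent of Myl9, Myl12a and Myl12b reads, with points for libraries and bars for mean and SD (n = 3). The Tpm1 and Myl9 shares are lower with Lap2 siRNA before and after serum, and the Myh10 share is higher.

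Both heavy chains of nonmuscle myosin II had a lower signed log2FC to serum with Lap2 siRNA than with control siRNA. Myh9 (ENSMUSG00000022443, chr15:77760587-77842175, minus strand), the heavy chain of myosin IIA and the main motor of stress fibres, had 20572, 18249 and 17795 normalized counts in starved and 38184, 38187 and 41445 in stimulated control cells. With Lap2 siRNA it had 18658, 23797 and 23243 in starved and 29757, 29493 and 32606 in stimulated cells. After serum, all Lap2-depleted libraries lay below all control libraries, at 78.0% of their mean (log2FC -0.36, standard error 0.07, adjusted p = 3.6e-04). Serum raised Myh9 by a log2FC of 1.06 with control and 0.48 with Lap2 siRNA, and this difference was called (interaction -0.57, standard error 0.10, adjusted p = 1.6e-04). In 0.3% FBS the groups overlapped. There the log2FC of 0.21 (adjusted p = 0.022) is an uncertain call, since it was 0.20 (adjusted p = 0.079) in a fit of these groups alone and missed the threshold without either of the starved control libraries 2 (0.058) and 3 (0.089) or of the starved Lap2 siRNA libraries 2 (0.11) and 3 (0.086). Without the library that stood apart it was 0.33 (adjusted p = 2.5e-06).

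Myh10 (ENSMUSG00000020900, chr11:68691559-68816632, plus strand), the heavy chain of myosin IIB, behaved otherwise. It had 8322, 8226 and 7698 normalized counts in starved control cells and 9845, 12657 and 12766 in starved Lap2-depleted cells, the lowest of the latter being the library that stood apart. Lap2 siRNA thus raised it to 145% of control in 0.3% FBS (log2FC 0.54, standard error 0.07, adjusted p = 2.4e-07). After serum the levels were close, with 8833, 8978 and 8473 in control and 9064, 8987 and 9529 in Lap2-depleted cells (log2FC 0.07, adjusted p = 0.57), although these groups did not overlap. Serum lowered Myh10 in Lap2-depleted cells (log2FC -0.35, adjusted p = 2.0e-04) and was not called in control cells (0.12, adjusted p = 0.26), and the interaction was -0.47 (adjusted p = 0.0014). The control value was -0.09 with total-count scaling, and 0.13 with an adjusted p of 0.027 without the library that stood apart.
Between the heavy chains, Myh10 made up 30.0% ± 1.14 (SD, n = 3) of Myh9 and Myh10 reads in starved and 18.3% ± 1.13 in stimulated control cells, and 34.9% ± 0.484 and 23.1% ± 0.425 in Lap2-depleted cells. The share was higher with Lap2 siRNA by 4.88 and 4.84 percentage points (exact permutation p = 0.1 in each, the smallest possible). The remaining heavy chains that could stand in for them were near absent, with Myh14 (myosin IIC) at 0 to 16 and Myh11 (smooth muscle) at 3 to 13 reads per library.

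Both light chain genes of the set fell with Lap2 siRNA before and after serum, and their serum responses differed. Myl9 (ENSMUSG00000067818, chr2:156775420-156781658, plus strand) encodes a regulatory light chain typical of smooth muscle and stress fibres. It had 584, 521 and 491 normalized counts in starved and 1858, 1824 and 1881 in stimulated control cells, against 242, 251 and 260 and 1062, 909 and 984 in Lap2-depleted cells. No groups overlapped, and the starved Lap2-depleted libraries stood below every other library. Its level was 47.2% of control in 0.3% FBS (log2FC -1.09, standard error 0.09, adjusted p = 8.6e-12) and 53.1% in 15% FBS (-0.91, standard error 0.08, adjusted p = 2.7e-11). Serum raised it by a log2FC of 1.80 with control and 1.97 with Lap2 siRNA, the largest serum responses of the 10 genes, and the interaction was 0.17 (standard error 0.12, adjusted p = 0.39).

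The regulatory light chain is also made from Myl12a and Myl12b, neighbouring genes whose products are nearly identical to that of Myl9. Myl12a had mean normalized counts of 6212 in starved and 11095 in stimulated control cells and 5528 and 9165 in Lap2-depleted cells (log2FC -0.17, adjusted p = 0.040, and -0.28, adjusted p = 0.0013). Myl12b had 2239, 2220, 2003 and 2399 in the same order, with neither Lap2 siRNA difference called (-0.16, adjusted p = 0.054, and 0.11, adjusted p = 0.25). Of the reads of these 3 genes, not scaled by length, Myl9 took 5.92% ± 0.506 (SD, n = 3) and 12.2% ± 0.148 in starved and stimulated control cells, and 3.24% ± 0.334 and 7.84% ± 0.498 in Lap2-depleted cells (exact permutation p = 0.1 for each siRNA comparison).

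Myl6 (ENSMUSG00000090841, chr10:128490860-128493875, minus strand), the essential light chain of nonmuscle and smooth muscle myosin, showed the largest fall with Lap2 siRNA of the 10 genes before and after serum. It had 11095, 10499 and 10067 normalized counts in starved and 11762, 11893 and 12775 in stimulated control cells, and 5023, 4011 and 3431 and 5967, 5539 and 5704 with Lap2 siRNA. All 6 Lap2-depleted libraries lay far below all 6 controls, at 39.4% of control in 0.3% FBS (log2FC -1.34, standard error 0.08, adjusted p = 1.4e-14) and 47.2% in 15% FBS (-1.08, adjusted p = 6.2e-12). Unlike Myl9, Myl6 had little serum response: a log2FC of 0.20 in control (adjusted p = 0.062) and 0.46 in Lap2-depleted cells (adjusted p = 3.3e-05), with an interaction of 0.26 (adjusted p = 0.15). Without the library that stood apart, the control response (0.21, adjusted p = 0.0010) and the interaction (0.39, adjusted p = 2.9e-04) passed. The control response also passed in a fit of its 2 groups alone (0.20, adjusted p = 0.0019), and with total-count scaling it was -0.01. Set against the heavy chains it partners, Myl6 had 39.2 ± 0.684 reads per 100 Myh9 and Myh10 reads in starved and 25.3 ± 0.292 in stimulated control cells, and 12.7 ± 4.31 and 14.4 ± 0.917 in Lap2-depleted cells (exact permutation p = 0.1 for each siRNA comparison). The paralog Myl6b, whose mean was 136 to 184 normalized counts in the 4 groups, had little of their joint reads: Myl6 made up 95.7% to 98.9% of the reads of both in the group means. Processed pseudogenes share 18.5% of the stretches of 50 bases of the longest coding Myl6 transcript, so that some reads may have been left uncounted or misplaced.

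Myo1e and Mylk formed another pattern, higher with Lap2 siRNA before serum and near the stimulated control level after it. Mylk (ENSMUSG00000022836, chr16:34745210-35002420, plus strand), the kinase that phosphorylates the regulatory light chain, had 147, 146 and 162 normalized counts in starved and 340, 356 and 385 in stimulated control cells. With Lap2 siRNA it had 346, 439 and 418 in starved and 444, 401 and 468 in stimulated cells. The starved Lap2-depleted libraries thus lay in and above the range of the stimulated controls. The log2FC of Lap2 siRNA in 0.3% FBS was 1.40 (standard error 0.11, adjusted p = 5.2e-12), 265% of control, and the largest rise of the 10. Serum raised Mylk in control cells (log2FC 1.25, adjusted p = 6.8e-11), the Lap2-depleted groups overlapped (0.13, adjusted p = 0.38, and -0.10 with total-count scaling), and the interaction was -1.12 (standard error 0.15, adjusted p = 2.2e-06). The rise with Lap2 siRNA in 15% FBS (0.28, adjusted p = 0.044) missed the threshold with DESeq2 (0.27, adjusted p = 0.060), without a filter on low counts (0.061) and without any 1 of 9 of the 12 libraries (0.22 to 0.28, the highest adjusted p being 0.22 without Lap2 15% replicate 3). The antisense gene E130310I04Rik overlaps 4.87% of the exon bases of Mylk.

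Myo1e (ENSMUSG00000032220, chr9:70207350-70399766, plus strand) encodes a single-headed myosin that links actin to membranes at sites of endocytosis and adhesion. It had 1016, 976 and 917 normalized counts in starved control and 1307, 1546 and 1523 in starved Lap2-depleted cells, groups that did not overlap (log2FC 0.59, standard error 0.08, adjusted p = 1.1e-07). After serum it had 1408, 1390 and 1286 in control and 1279, 1266 and 1417 in Lap2-depleted cells, groups that did overlap (log2FC -0.04, adjusted p = 0.76, and 0.04 with total-count scaling). Serum raised Myo1e in control cells (log2FC 0.49, adjusted p = 3.4e-06), the value in Lap2-depleted cells was -0.14 (adjusted p = 0.16), and the interaction was -0.63 (standard error 0.11, adjusted p = 5.7e-05). The value in Lap2-depleted cells passed without the library that stood apart (-0.23, adjusted p = 0.0068), with total-count scaling (-0.37, adjusted p = 1.4e-04) and with upper-quartile scaling (-0.25, adjusted p = 0.0062). In these bulk libraries, fewer cells with the transcript and less of it per cell cannot be told apart for any of the genes.

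**Figure D3:**
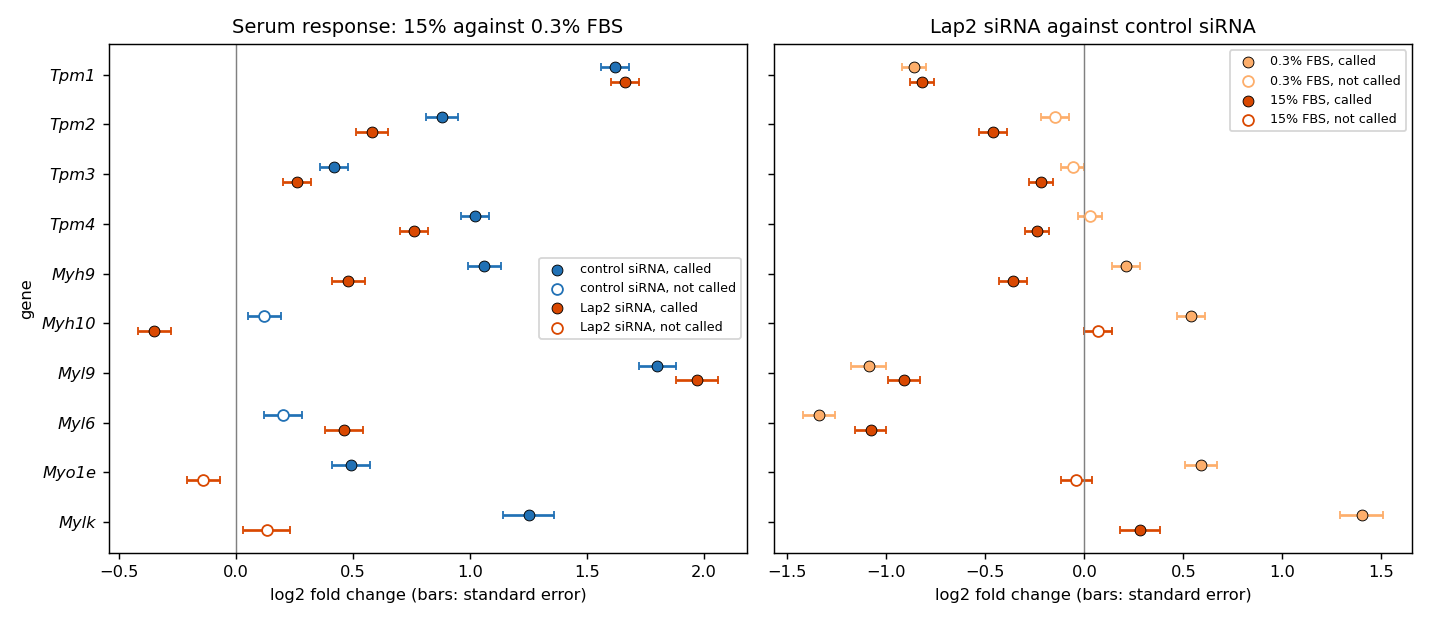
Log2 fold changes (points) with standard errors (bars) of the 10 genes from edgeR; left, 15% against 0.3% FBS with each siRNA, and right, Lap2 against control siRNA in each serum condition. Filled points passed an adjusted p of 0.05 and open points did not. Tpm1 and Myl9 respond to serum to a like extent with both siRNAs (1.62 and 1.66, 1.80 and 1.97), while the response of Mylk is 1.25 with control and 0.13 with Lap2 siRNA.

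The effect of Lap2 siRNA in the 2 serum conditions set the genes apart as groups. Tpm1, Myl9 and Myl6 were lower in both, with interactions of 0.04, 0.17 and 0.26 that were not called. Tpm2, Tpm4 and Myh9 were lower after serum and Mylk, Myo1e and Myh10 higher before it, and these are the 6 genes whose interaction was called. Tpm3 was lower after serum as well, but its interaction of -0.16 was not called, and Myh9 also carried the uncertain higher call before serum. This division by calls was not stable. Without the library that stood apart, the interactions of Myl6 (0.39) and Tpm3 (-0.22) passed. Those of Tpm2 and Tpm4 missed the threshold when certain other single libraries were left out. The interaction is the same number whether it is read as a change of the serum response or as a change of the Lap2 siRNA effect, since both share the 4 groups. Depletion itself was unequal, with Tmpo at 38.4% of control in 0.3% and 22.2% in 15% FBS (interaction -0.79, adjusted p = 3.0e-06). The part of this difference in the division of the genes was not tested.

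**Figure D4:**
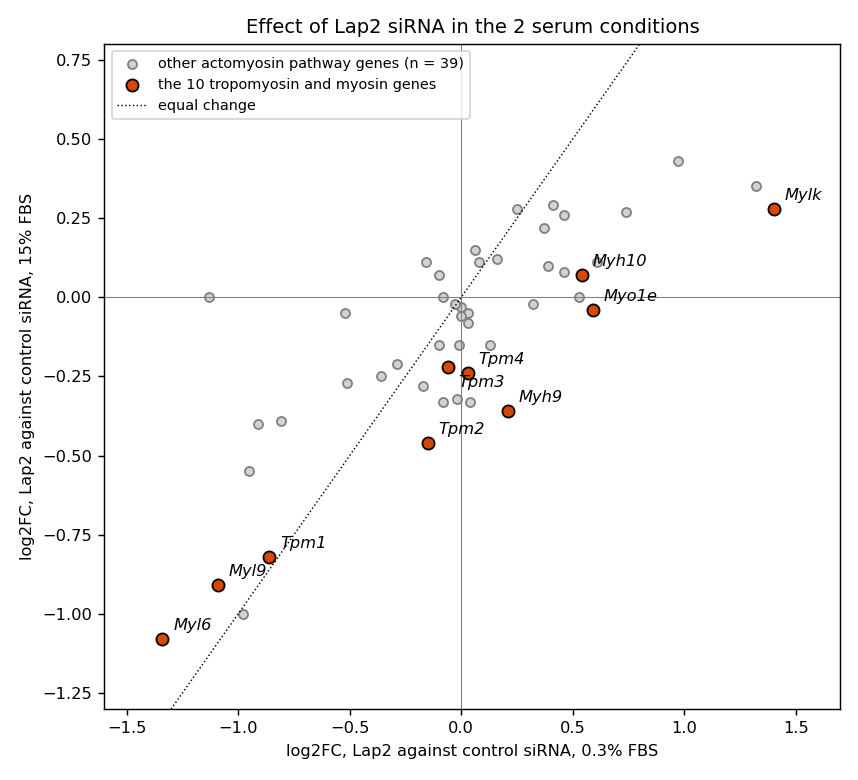
Log2FC of Lap2 against control siRNA in 0.3% FBS (x axis) and in 15% FBS (y axis) for the 10 genes (orange) and 39 other genes of the actomyosin pathway whose mean reached 100 normalized counts (grey); the dotted line marks an equal change. Tpm1, Myl9 and Myl6 lie at the lower left, within 0.26 of the line, and Myh9, Myh10, Myo1e and Mylk lie below it on the right.

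The other genes of the actomyosin machinery were taken from a list of 79, of which 57 were tested. Serum raised 19 and lowered 1 of them in control cells and raised 19 and lowered 4 in Lap2-depleted cells, with a median log2FC of 0.12 and 0.15. The shares called were 35.1% and 40.4%, beside 29.5% and 33.2% of all genes and 45.2% and 51.3% of the abundant ones. With Lap2 siRNA 14 were raised and 12 lowered in 0.3% FBS, and 4 were raised and 12 lowered in 15% FBS. The shares called were 45.6% and 28.1%, beside 36.5% and 23.4% of all genes and 56.3% and 40.3% of the abundant ones. The interaction was higher for 6 and lower for 11 (29.8%, beside 13.6% and 23.2%). These splits depended on the scaling: with total counts they were 13 higher and 14 lower, 12 and 16, 19 and 10, 13 and 9, and 5 and 12, and with upper-quartile scaling the serum splits were 15 and 3 and 17 and 8. For the 10 genes themselves, total-count scaling moved the split of serum with Lap2 siRNA from 7 and 1 to 6 and 2. It moved that of Lap2 siRNA in 15% FBS from 1 and 7 to 1 and 5. Over all genes these splits went from 3420 and 2777 to 1658 and 5951, and from 2125 and 2250 to 3471 and 1678.
Of the 15 tested unconventional myosins, serum raised 6 and lowered 0 in control cells and raised 3 and lowered 2 in Lap2-depleted cells. Of all genes 29.5% and 33.2% were called there. With Lap2 siRNA 7 were higher and 3 lower in 0.3% FBS, beside 36.5% of all genes called and 56.3% of the abundant ones, and 2 were higher and 4 lower in 15% FBS. Their interaction was higher for 1 and lower for 7, beside 13.6% and 23.2%. The Lap2 siRNA calls in 0.3% and 15% FBS were 1 higher and 1 lower and 0 and 2 of 7 myosin phosphatase genes, 0 and 2 in both conditions of 5 tropomyosin partners and caps, 1 and 1 and 0 and 2 of 6 myosin II partners and chaperones, and 0 and 1 in both of 4 other nonmuscle myosin II chains. Of all genes 36.5% and 23.4% were called in these conditions. Myo1d, a class I myosin like Myo1e, rose in 0.3% FBS (log2FC 0.97, adjusted p = 1.8e-12) and less in 15% FBS (0.43, adjusted p = 3.5e-05), with an interaction of -0.54 (adjusted p = 3.5e-04). Myo10, a motor of filopodia, also rose in 0.3% (0.74, adjusted p = 1.1e-08) and 15% FBS (0.27, adjusted p = 0.015), whereas Myo6, the myosin that moves toward the minus end of actin, fell in both conditions (-0.95, adjusted p = 4.1e-10, and -0.55, adjusted p = 2.0e-05). The Myo10 call in 15% FBS missed the threshold without control 15% replicate 3 or Lap2 15% replicate 1 or 3 (log2FC 0.22 to 0.26). Myo1c was raised by serum with control (1.35, adjusted p = 3.9e-18) and Lap2 siRNA (1.06, adjusted p = 3.5e-15).

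Among the kinases and calmodulins of the list, Cit, citron kinase, which acts on myosin light chain at the cleavage furrow, had 316 ± 33.5 normalized counts (SD, n = 3) in starved control and 788 ± 144 in starved Lap2-depleted cells (log2FC 1.32, adjusted p = 7.0e-12). After serum it had 343 ± 5.95 and 436 ± 13.9 (0.35, adjusted p = 0.020), with an interaction of -0.97 (adjusted p = 2.3e-05). Dapk1, another kinase able to phosphorylate the light chain, went the opposite way, from 625 ± 30.7 to 285 ± 20.7 in 0.3% FBS (-1.13, adjusted p = 7.2e-11), with an interaction of 1.14 (adjusted p = 4.8e-07). Rhob, an early serum-response gene, was raised by serum with control (1.18, adjusted p = 4.2e-16) and Lap2 siRNA (1.05, adjusted p = 7.2e-15) and by Lap2 siRNA in 0.3% (0.41, adjusted p = 6.4e-06) and 15% FBS (0.29, adjusted p = 8.7e-04), and Rhoc had an interaction of 0.47 (adjusted p = 3.0e-04). Calm3, a calmodulin gene, was the 1 gene lowered by serum in control cells (-0.19, adjusted p = 0.013).

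Among the partners of tropomyosin and myosin, Lmod1, a leiomodin that nucleates actin and binds tropomyosin, fell with Lap2 siRNA before and after serum. It had 210 ± 8.63 normalized counts (SD, n = 3) in starved and 2490 ± 107 in stimulated control cells, and 107 ± 2.86 and 1241 ± 139 in Lap2-depleted cells. Lap2 siRNA lowered it by a like factor in 0.3% FBS (log2FC -0.98, adjusted p = 1.5e-08) and 15% FBS (-1.0, adjusted p = 3.3e-12), and its serum response was 3.56 with control and 3.53 with Lap2 siRNA. Svil, supervillin, which binds myosin II and actin at membranes, fell in 0.3% FBS (-0.91, adjusted p = 2.9e-12) and less in 15% FBS (-0.40, adjusted p = 5.0e-05), with an interaction of 0.51 (adjusted p = 4.2e-04). Of the myosin phosphatase genes, Ppp1r12b was raised by serum in control cells (1.27, adjusted p = 3.9e-13) and had an interaction of -0.53 (adjusted p = 0.0049). Of the 15 muscle myosin chains on the list, 4 had enough reads to be tested.

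Across the 12 libraries, the genes whose log2 CPM followed each of the 10 most closely were sought among genes whose mean reached 100 normalized counts. The points share 4 groups of 3 libraries, so these values describe the group pattern. Tpm1 and Myl9 were each other's nearest gene (Pearson r = 0.997), and Tagln, which encodes the actin-binding protein transgelin, came next for both (0.996 each). Tpm4 was followed most closely by Ifrd1 (0.996) and Arpc4 (0.995), a subunit of the Arp2/3 complex, Tpm2 and Tpm3 both had Map9 among their nearest (0.989 and 0.984), Myh9 was nearest to Aars (0.988) and Myl6 to Drap1 (0.990). Mylk was nearest to Ivns1abp (0.989), Myh10 to Dnmt1 (0.976), the maintenance DNA methyltransferase, and Myo1e to E2f8 (0.968), Prkar2a (0.963) and Mcm4 (0.963). Within the set, Myo1e and Mylk had an r of 0.91 with each other, and Myl6 had an r of -0.83 with Myh10.

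The siRNA itself has a seed, bases 2 to 8 of its antisense strand, whose complement in a transcript is GCTCTCT. This heptamer was present in protein-coding transcripts of 32.6% of the 13895 tested coding genes. Among the 10 genes it was found in 2 of 16 coding transcripts of Tpm1, 3 of 4 of Myh10, 5 of 6 of Myl6 and 1 of 2 of Mylk, and in no coding transcript of the other 6. The genes that hold it include ones that were lower (Tpm1, Myl6) and higher (Myh10, Mylk) with Lap2 siRNA in 0.3% FBS, and its part in the results was not tested.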

How the data were processed

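RNA-seq of NIH 3T3 cells gave 12 libraries in 4 groups of 3, grouped by the siRNA and serum labels. The deposited values are raw read counts per Ensembl gene, which the authors made with TopHat2 (mm10, default settings) and HTSeq; tool versions, the counting annotation and the strand setting are not given in the sources used here. Start positions in the files count from 0 and are given here from 1. Of the identifiers, 99.3% had a symbol in GENCODE M21.

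The counts were analysed in R 4.3.3 with edgeR 4.0.16 (TMM, glmQLFit, glmQLFTest, a mean for each group in 1 fit) over 18668 genes, those whose count exceeded 1 in 3 or more libraries. P-values were adjusted over all of these by Benjamini-Hochberg, and values under 0.05 were called. There were 5 contrasts: serum with each siRNA, Lap2 siRNA in 0.3% and in 15% FBS, and the interaction. To give normalized counts, each count was divided by its library's TMM-adjusted size and multiplied by the mean size. Levels per kilobase used the GENCODE M21 exon union. Shares were compared by exact permutation. Promoter windows came from RefSeq (GRCm38.p6).

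The 10 genes, the pathway list and the marker lists were chosen with earlier results of these data known. Pathway genes are named where they had 1 of the 3 largest changes in a direction among called genes whose mean reached 100 normalized counts. In contrasts of 2 groups these groups also had to be without overlap, a rule not applied to the interaction. For some of these genes values of other contrasts are given too, and paralogs of the 10 genes are named apart from this rule. The 3 nearest genes per member were taken by Pearson r of log2 CPM. Alternatives were DESeq2 1.42.0, total-count and upper-quartile scaling, 3 other filters, fits of the groups compared, a replicate block, and each library left out. On simulated counts for 18105 genes, with 200 changed by a log2FC of 1 between the siRNAs in 15% FBS, 99.5% of the changed and 8 unchanged genes were called. The changed genes were drawn from those with a mean of at least 100 reads. Smaller changes and a larger share of changed genes were not simulated, so these rates do not cover them. Tables and figures were made with Python 3.11.15, pandas 2.3.3 and matplotlib 3.10.9.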

Additional observations from a re-analysis of the deposited data

Results flagged for a closer look

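A difference between the serum responses with the 2 siRNAs, tested as the interaction term, singled out 6 of the 10 genes: Tpm2 (-0.30 on the log2 scale, Lap2 minus control siRNA), Tpm4 (-0.26), Myh9 (-0.57), Myh10 (-0.47), Myo1e (-0.63) and Mylk (-1.12). Among pathway genes that reached the level set for naming, the 3 largest called differences upward were those of Dapk1 (1.14), Svil (0.51) and Rhoc (0.47). The 3 largest downward were those of Cit (-0.97), Myo1d (-0.54) and Ppp1r12b (-0.53). Other pathway genes named by value were called too, Myo6 (0.4) and Myl12b (0.27) higher and Myo10 (-0.47) and Myo1c (-0.3) lower. Groups of 3 libraries were not examined for single outlying values.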

How the results depend on the processing

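The numbers of the 10 genes called stayed within 1.5 times under every alternative, with ranges over libraries left out of 8 to 10 and 8 to 9 for serum with control and Lap2 siRNA, 6 to 8 and 7 to 8 for Lap2 siRNA in 0.3% and 15% FBS, and 4 to 8 for the interaction. For the pathway list the corresponding ranges were 17 to 24, 22 to 27, 22 to 30, 12 to 21 and 11 to 23, the 11 arising without control 15% replicate 1. Directions that reversed were of values not called in either setting: with total-count scaling Tpm3 in 0.3% FBS (0.05), Myh10 (-0.09) and Myl6 (-0.01) for serum in control cells, Myo1e in 15% FBS (0.04) and Mylk for serum with Lap2 siRNA (-0.10), and without Lap2 0.3% replicate 2 the Tpm1 interaction, which ranged from -0.01 to 0.10 over libraries left out. Total counts moved the median log2FC of all genes by -0.21 and -0.23 for serum with control and Lap2 siRNA and by 0.11 and 0.09 for Lap2 siRNA in 0.3% and 15% FBS, and upper-quartile scaling moved that of serum by -0.095 and -0.11. The cause of these changes was not tested. With other gene lengths, 68 levels per kilobase moved by more than 1 SD and 12 did not.

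Same-numbered libraries did not deviate together (r of deviations from group means -0.12 to 0.099 over 18 pairs, and -0.21 to 0.22 over 36 pairs of other numbers, 10449 genes), so the numbers were not taken as a pairing. With the replicate block the numbers called were 9, 8, 7, 8 and 6, and the single change was that Myl6 passed for serum in control cells (0.21, adjusted p = 0.030). With 3 libraries a group, exact tests cannot go below p = 0.1.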
